A study of Homo sapiens with 6 samples.

Results

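The collagen, laminin and integrin genes of 3 non-small cell lung cancer (NSCLC) lines were examined as a group. Members were all protein-coding rows of the expression table whose symbol names a collagen chain, a laminin alpha, beta or gamma chain, or an integrin alpha or beta chain. This gave 82 of 19672 protein-coding genes and of 46427 genes in all, made up of 44 collagens, 12 laminins, 18 integrin alpha chains and 8 integrin beta chains. The rule itself used no measured value, although it was set with earlier results of these data known. The 6 libraries came from H460, H1299 and A549, each with 1 control library and 1 from cells given si-MALAT1, an siRNA against the long noncoding RNA MALAT1. H460 is a large cell carcinoma line, H1299 a line from a lymph node metastasis, and A549 a lung adenocarcinoma line. The labels give the controls as not treated, and the methods, which describe both negative controls and cells given si-Control, do not say which was sequenced. Each line and condition had 1 library, so the control and the si-MALAT1 library are the only libraries of a line, and they differ in treatment.

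Collagens are trimers, most of them secreted to form fibrils or networks, and some are transmembrane proteins. Laminins are alpha-beta-gamma trimers that, with type IV collagen, build the basement membrane under epithelial cells. Integrins are alpha-beta dimers at the cell surface through which cells bind matrix, and the alpha chain largely sets the ligand.

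Depth ranged from 42506818 to 68515992 reads per library, and the members took 0.513% to 1.62% of the reads. MALAT1 had 231045, 407551 and 93747 reads in the H460, H1299 and A549 controls, and 43858, 47935 and 14447 in the matching si-MALAT1 libraries. Of the 6 epithelial markers checked, 4 in H460, 2 in H1299 and 5 in A549 reached a TPM (transcript abundance scaled for length and depth) of 1 in both libraries, and all 4 mesenchymal markers did so in H1299 and A549 and 3 in H460. Of the 4 lung epithelial markers, 0 did so in H460 and H1299 and 1 in A549, and NKX2-1 and SFTPB were at 0 in A549 and H460. No endothelial marker did so in any line. Among blood markers only CD14 reached it, in H460 and A549, while PTPRC and CD3E had 0 reads in every library. Of the 6 fibroblast markers, 2 did so in H460, namely PDGFRB and LUM, with summed TPM of the list at 6.63 and 6.24 there and 0.319 to 1.71 in the other lines. DCN, a defining fibroblast gene, stayed at or below 30 reads everywhere. PDGFRB, LUM and the summed TPM were highest in the line with the highest collagen level. PDGFRA and THY1 instead had 0 reads in H460 and their highest levels in A549. The part of these markers in the collagen level was not tested.

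A gene was taken as expressed in a line when its TPM was at least 1 in both libraries. By this measure H460 expressed 39 of the 82 members (47.6%), H1299 34 (41.5%) and A549 36 (43.9%), against 56.0%, 58.4% and 57.5% of all protein-coding genes. H1299 expressed 10 collagens, and H460 and A549 18 each. H1299 expressed 10 laminin chains and 10 integrin alpha chains, compared with 9 and 8 in H460 and 7 and 8 in A549. In all, 24 members were expressed in the 3 lines and 32 in none, and the latter included COL1A2, COL2A1 and the leukocyte chains ITGAL, ITGAX, ITGAD and ITGB2. Chains expressed by H460 alone were COL8A1, COL14A1, COL16A1, LAMA1 and ITGB8. Those expressed by H1299 alone were COL13A1, COL17A1, LAMA2, LAMA4, ITGA4, ITGA10 and ITGB3, and those by A549 alone were COL1A1, COL11A1 and COL21A1. The 8 chains expressed by H460 and A549 but not H1299 were all collagens, including 5 of type IV. Some of these memberships rest on values near the threshold, as for ITGB8 in the H1299 control (0.963) and COL1A1 in H460 (0.505 and 1.32).

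**Figure D1:**
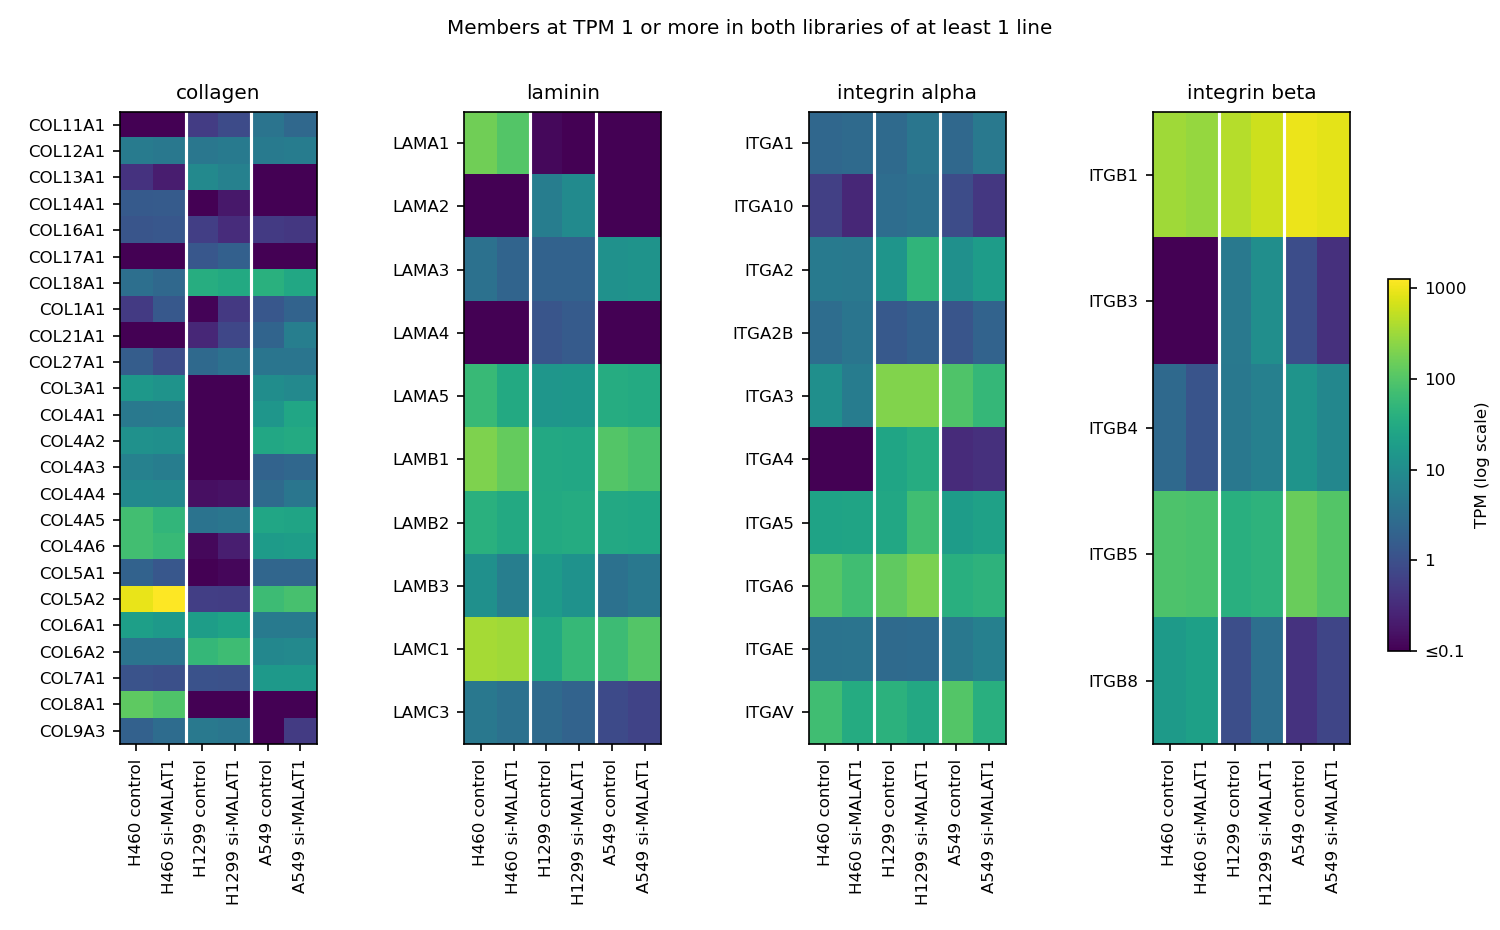
Heat map of TPM (colour, log scale, values of 0.1 or less drawn as 0.1) in the 6 libraries (columns) for 49 of the 50 members with a TPM of 1 or more in both libraries of at least 1 line (rows, by family). A dark block in H1299 marks COL3A1, COL5A1 and the type IV chains other than COL4A5, all below a TPM of 0.3 there, and the brightest cells are COL5A2 in H460 and ITGB1 in A549.

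In H460 the summed collagen TPM was 1263 (control) and 1505 (si-MALAT1), compared with 137 and 152 for H1299, and 257 and 282 for A549. The laminin sums were 831 and 641 in H460, 145 and 180 for H1299, and 250 and 259 for A549. The order was different for integrin alpha chains, with sums of 224 and 150 in H460, 457 and 600 for H1299, and 275 and 194 for A549. For integrin beta chains the sums were 435 and 391, 482 and 686, and 1108 and 961. H460 thus had the highest collagen and laminin sums, H1299 the highest alpha chain sum and A549 the highest beta chain sum in both conditions. These sums rest on few genes, since COL5A2 alone made up 71.8% and 81.1% of the collagen TPM in the 2 H460 libraries.

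COL5A2, the alpha 2 chain of the fibrillar type V collagen (chr2:189031898-189225301, GRCh38, minus strand), had a TPM of 907 (control) and 1221 (si-MALAT1) in H460. It had 64.4 and 81.8 in A549, and 0.578 and 0.562 in H1299. The 3 lines did not overlap. The log2 difference of H1299 from H460 was -10.84 in the control and -11.51 in the si-MALAT1 libraries, with a mean of -11.18 ± 0.47 (SD, n = 2) and an edgeR adjusted p of 1.68e-05. A549 differed from H460 by -4.15 ± 0.13 (edgeR adjusted p = 8.60e-05). COL5A1, the chain that pairs with COL5A2 in the common type V trimer, was low everywhere, with a TPM of 1.92 and 1.31 in H460, 0.0785 and 0.116 for H1299, and 2.29 and 2.30 for A549. The H460 libraries thus held far more RNA for the alpha 2 chain than for its partner. COL5A3 did not exceed 27 reads in any library.

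For type I collagen, the main fibrillar collagen of connective tissue, the COL1A2 chain had 5 reads in the H1299 si-MALAT1 library and 0 in the other 5 libraries. COL1A1 had a TPM of 0.505 and 1.32 in H460, 0.109 and 0.482 for H1299, and 1.29 and 2.03 for A549. Both chains of type I collagen were thus not at a TPM of 1 together in any line. COL3A1, whose 3 identical chains form type III collagen, had a TPM of 15.5 and 12.9 in H460 and 10.2 and 8.56 in A549, and 0 and 22 reads in H1299. It was called lower in H1299 than in H460 (edgeR log2 fold change -8.90, adjusted p = 2.58e-04), with within-condition differences of -12.16 and -7.71 that depend on those 0 and 22 reads. For COL3A1, A549 differed from H460 by -0.89 ± 0.08 (SD, n = 2), which was not called (edgeR adjusted p = 0.174, DESeq2 0.795). That outcome changed with the setting.

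Type IV collagen, the network collagen of basement membranes, is encoded by 6 genes that lie as 3 head-to-head pairs, with the genes of a pair transcribed away from each other. In the deposited annotation the outermost starts were 126 bases apart for COL4A1 and COL4A2 on chromosome 13, 106 for COL4A4 and COL4A3 on chromosome 2, and 344 for COL4A6 and COL4A5 on chromosome X. The DNA between the starts is shown because the chains of a pair were high or low in the same lines, apart from COL4A5 in H1299. It was read from GRCh38, with capitals marking matches to the letters CCAAT or GGGCGG on either strand. For COL4A6 and COL4A5 only the 250 bases next to COL4A6 are shown, and the bases next to COL4A5 are not. The motifs TATAAA and TGANTCA were also searched and were not found in these 3 windows. No motif overlapped another.
COL4A1 to COL4A2, chr13:110307158-110307283, plus strand: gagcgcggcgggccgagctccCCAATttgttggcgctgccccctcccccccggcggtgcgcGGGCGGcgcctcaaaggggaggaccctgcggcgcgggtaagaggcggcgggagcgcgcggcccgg
COL4A4 to COL4A3, chr2:227164483-227164588, plus strand: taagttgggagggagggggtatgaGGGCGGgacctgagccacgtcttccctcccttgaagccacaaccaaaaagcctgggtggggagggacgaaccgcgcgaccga
250 bases before COL4A6, chrX:108439494-108439743, minus strand: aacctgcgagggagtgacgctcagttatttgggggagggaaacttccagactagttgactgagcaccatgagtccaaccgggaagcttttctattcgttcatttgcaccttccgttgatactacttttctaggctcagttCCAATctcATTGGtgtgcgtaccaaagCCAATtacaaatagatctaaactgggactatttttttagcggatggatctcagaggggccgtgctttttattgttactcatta

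The COL4A1 to COL4A2 window held 1 CCAAT and 1 GGGCGG and was 80.2% G and C. The COL4A4 to COL4A3 window held 1 GGGCGG at 63.2% G and C, and the COL4A6 window held 3 CCAAT matches at 44.4%. Among 35116 RefSeq promoters (GRCh38), 21.1% held CCAAT and 34.6% GGGCGG in the last 126 bases before the start, 32.2% held GGGCGG in the last 106, and 32.0% held CCAAT in the last 250. The motifs are therefore common, and their presence is a description of the letters only. A RefSeq promoter was matched for 58 of the 82 members. Over their 77 promoter entries and 250 bases, 22.1% held CCAAT, 53.2% GGGCGG, 13.0% TATAAA and 3.90% TGANTCA, compared with 32.0%, 42.6%, 10.7% and 6.57% of all promoters.

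COL4A1 and COL4A2, which form the most widespread type IV trimer, had a TPM of 4.48 and 4.95 (COL4A1, control and si-MALAT1) and 12.0 and 11.2 (COL4A2) in H460. In A549 the values were 14.0 and 26.4 for COL4A1 and 28.7 and 32.0 for COL4A2. In H1299 COL4A1 had 5 and 0 reads and COL4A2 8 and 10 reads, against 1716 to 8029 reads for these genes in the other 4 libraries. Both were lower in H1299 than in H460, with an edgeR adjusted p of 6.34e-05 for COL4A1 (log2 fold change -9.66) and 1.66e-05 for COL4A2 (mean difference -8.97 ± 0.26, SD, n = 2). Both were also higher in A549 than in H460, by 1.82 ± 0.33 and 1.10 ± 0.09. The COL4A1 call in that contrast was lost with DESeq2 (adjusted p = 0.214, range over the alternatives 7.05e-04 to 0.214).

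COL4A3 and COL4A4, chains of the kidney and lung basement membrane type IV network, were also lowest in H1299 but were higher in H460 than in A549. COL4A3 had a TPM of 6.45 and 5.48 in H460, 2.01 and 2.36 in A549, and 0.0777 and 0.0979 in H1299. COL4A4 had 8.80 and 8.18, 2.58 and 4.11, and 0.146 and 0.160. Each line stood apart from the others for both genes, and H1299 differed from H460 by -6.03 ± 0.12 for COL4A3 and -5.95 ± 0.05 for COL4A4 (SD, n = 2, edgeR adjusted p = 2.11e-05 and 3.47e-05).

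COL4A5 and COL4A6 were the most abundant type IV chains in H460. COL4A5 had a TPM of 72.1 and 50.3 in H460, 26.4 and 25.2 in A549, and 3.70 and 4.04 in H1299. COL4A6 had 72.0 and 58.0 in H460, 17.7 and 18.8 in A549, and 0.123 and 0.224 in H1299. The chains of this pair were at similar levels in H460 and A549, whereas in H1299 COL4A5 remained expressed and COL4A6 did not. Together they made up 82.0% and 78.4% of the type IV TPM in H460, 48.2% and 40.5% in A549 and 93.9% and 93.7% in H1299, where the type IV sum was only 4.07 and 4.56. H1299 differed from H460 by -4.28 ± 0.29 for COL4A5 (edgeR adjusted p = 3.25e-05) and by -8.94 ± 0.59 for COL4A6 (2.11e-05).

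**Figure D2:**
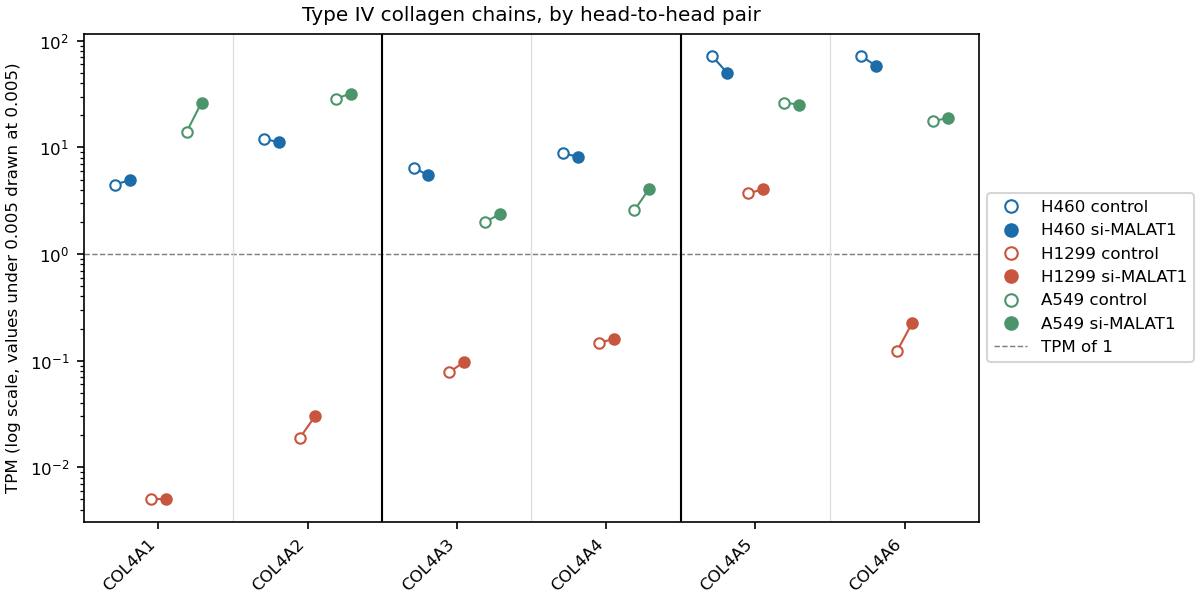
TPM (log axis, values under 0.005 drawn at 0.005) of the 6 type IV collagen genes in each line, with open circles for the control and filled circles for the si-MALAT1 library and black lines between the head-to-head pairs. H1299 lies below a TPM of 0.3 for every chain except COL4A5, at 3.70 and 4.04.

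Beaded-filament type VI collagen showed another order. COL6A2 had a TPM of 52.9 and 66.1 in H1299, 3.72 and 3.84 in H460, and 7.80 and 8.50 in A549. COL6A1 had 19.2 and 23.6 in H1299, 20.5 and 16.6 in H460, and 4.89 and 4.87 in A549. COL6A3, the third chain of the usual trimer, stayed at or below 0.656 in all 6 libraries. COL6A2 was higher in H1299 than in H460 by 3.63 ± 0.05 (SD, n = 2, edgeR adjusted p = 2.80e-05), and COL6A1 was lower in A549 than in both other lines, with differences of -2.21 ± 0.12 against H460 and -2.08 ± 0.16 against H1299 (edgeR adjusted p = 2.69e-04 and 2.52e-04). The chains of the canonical type VI trimer were thus not expressed together in any line.

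COL8A1, a short-chain network collagen, had a TPM of 119 and 92.0 in H460, 0.102 and 0.0524 in H1299, and 0 in both A549 libraries. It was at least 8711-fold higher in H460 than in A549, taking 3 reads per library as the floor. COL18A1, the source of the fragment endostatin, had the opposite distribution, with 3.11 and 2.41 in H460, 35.3 and 30.9 for H1299, and 40.6 and 29.1 for A549. It was higher in H1299 than in H460 by 3.25 ± 0.02 (SD, n = 2, edgeR adjusted p = 4.06e-05), and 17.1% of its exon bases are shared with SLC19A1 on the other strand. COL7A1, the anchoring fibril collagen, was close to 1 in H460 (1.12 and 1.00) and H1299 (1.07 and 1.03) and at 15.7 and 15.8 in A549, a difference from H460 of 3.58 ± 0.05 (edgeR adjusted p = 5.14e-05). COL12A1, a fibril-associated collagen, was nearly level across lines, from 4.26 to 5.25 in the 6 libraries. COL14A1, another collagen of that class, had 707 and 735 reads in H460, 14 and 82 in H1299, and 0 in both A549 libraries, at least 183-fold lower in A549 than in H460. COL15A1, a basement membrane collagen, had 163 and 219 reads in H460, 23 and 29 in A549, and 0 in H1299, at least 73.3-fold lower than in H460. Its TPM in H460 was 0.52 and 0.67, under the threshold of 1. COL11A1, a fibrillar collagen of cartilage, had 951 and 705 reads in A549, 235 and 333 in H1299, and 0 and 5 in H460 (edgeR adjusted p = 5.13e-04, A549 against H460).

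Among laminin alpha chains, LAMA3 and LAMA5 were expressed in all 3 lines, H460 added LAMA1, H1299 added LAMA2 and LAMA4, and A549 added none. LAMA1, the alpha chain of the embryonic laminin-111 (chr18:6941742-7117797, minus strand), had a TPM of 161 and 99.7 in H460, 0.124 and 0.0966 for H1299, and 0.0696 and 0.0536 for A549. The differences from H460 were -10.47 ± 0.08 for H1299 and -11.21 ± 0.16 for A549 (SD, n = 2, edgeR adjusted p = 1.66e-05 and 4.19e-05). LAMA2, the alpha chain of muscle and nerve laminin, had 5.54 and 9.22 in H1299, 0.0417 and 0.0391 in H460, and 0 and 0.0224 in A549. LAMA4, the alpha chain of vessel wall laminin, had 455 and 478 reads in H1299 and 0 in the other 4 libraries. It was at least 136-fold higher in H1299 than in H460 and at least 103-fold higher than in A549, and with DESeq2 the adjusted p of the latter was 0.0521 (edgeR 0.00116, range over the alternatives 1.23e-04 to 0.0521).

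LAMA5, the alpha chain of the widespread epithelial laminins, had a TPM of 57.9 and 30.4 in H460, 14.1 and 14.5 for H1299, and 35.1 and 32.3 for A549. LAMA3, an alpha chain of epithelial laminins, was highest in A549 at 11.7 and 12.7, compared with 3.33 and 2.07 in H460 and 1.93 and 1.95 in H1299. The LAMA3 difference of A549 from H1299 was 2.78 ± 0.26 (SD, n = 2, edgeR adjusted p = 1.23e-04). LAMB3, an epithelial beta chain, was highest in H1299 instead, with 17.5 and 12.3 there, 11.5 and 5.74 in H460, and 3.37 and 4.43 in A549. The LAMB3 difference of H1299 from H460 was not called (edgeR adjusted p = 0.1995).

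LAMC1 and LAMB1, the gamma and beta chains that most laminins share, were the most abundant laminin RNAs in H460. LAMC1 had a TPM of 347 and 333 in H460, 29.6 and 55.6 for H1299, and 65.5 and 99.6 for A549. LAMB1 had 203 and 134 in H460, 29.5 and 28.4 for H1299, and 102 and 80.1 for A549. H460 stood above both other lines for each gene, with LAMC1 in H1299 differing by -3.40 ± 0.54 and LAMB1 by -2.84 ± 0.26 (SD, n = 2, edgeR adjusted p = 1.33e-04 and 7.28e-05). LAMB2, the beta chain of synaptic and kidney laminins, varied least, from 27.6 to 40.0 over the 6 libraries. LAMC3 was at 4.32 and 3.42 in H460, 2.64 and 2.06 for H1299, and 0.842 and 0.676 for A549.

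**Figure D3:**
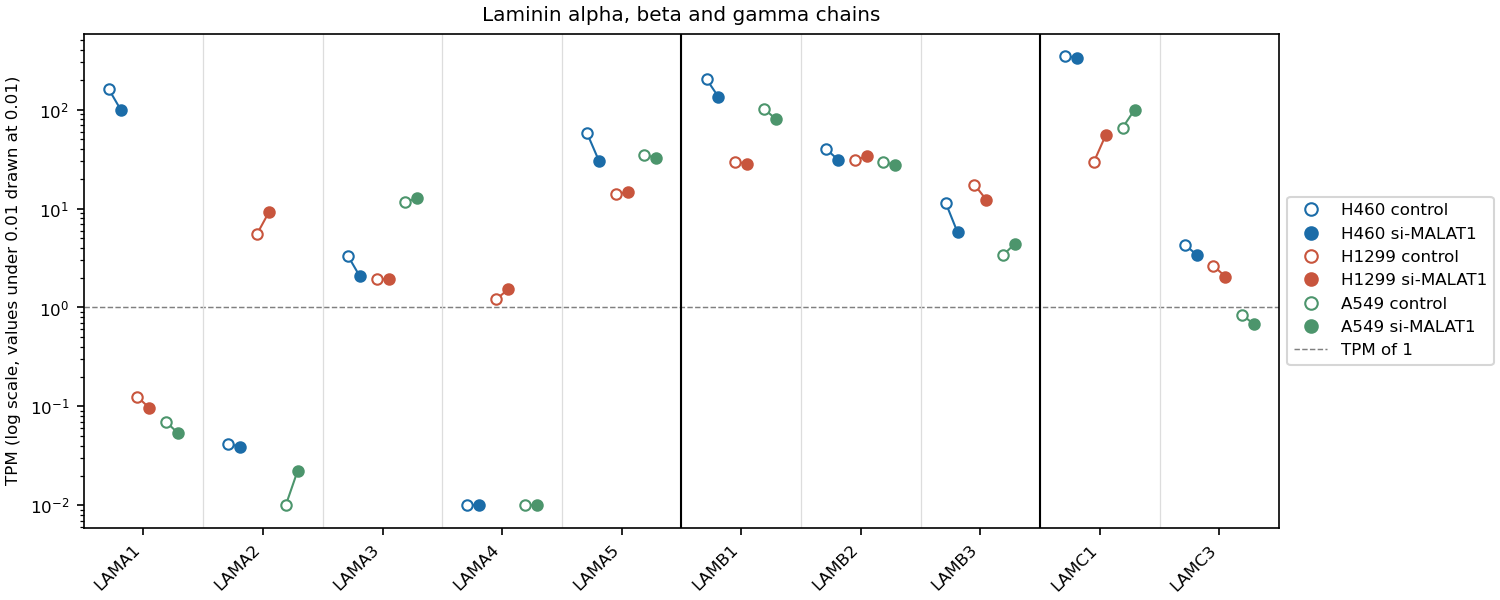
TPM (log axis, values under 0.01 drawn at 0.01) of 10 laminin chains in each line, with open circles for the control and filled circles for the si-MALAT1 library and black lines between alpha, beta and gamma chains. LAMA1 lies near 100 in H460 only, LAMA2 and LAMA4 lie above 1 in H1299 only, and LAMB2 lies between 27.6 and 40.0 in all 6 libraries.

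Integrin beta chains were led in every library by ITGB1, the common partner of collagen and laminin receptors. Its TPM was 325 and 284 in H460, 433 and 620 for H1299, and 946 and 851 for A549, or 72.5% to 90.4% of the beta chain sum. A549 was higher than H460 by 1.27 ± 0.06 (SD, n = 2, edgeR adjusted p = 0.00366, highest over the alternatives 0.0531). ITGB5, a partner of the alpha V chain that binds vitronectin, was next, at 90.3 and 84.6 in H460, 38.4 and 45.5 for H1299, and 147 and 99.5 for A549. The third place differed. In H460 it was held by ITGB8, an alpha V partner known for activation of latent TGF-beta, with 16.8 and 21.7 against 0.963 and 3.15 for H1299, and 0.395 and 0.720 for A549. In H1299 it was ITGB3, the vitronectin receptor chain, with 4.50 and 10.7 against 0.0244 and 0.0183 in H460 and 0.944 and 0.371 in A549. In A549 it was ITGB4, the hemidesmosome chain that pairs with ITGA6, with 13.2 and 7.83 against 2.56 and 1.18 in H460 and 4.45 and 6.13 in H1299. The differences were -3.75 ± 0.77 for ITGB8 and 7.75 ± 1.01 for ITGB3, H1299 against H460, and 2.20 ± 0.08 for ITGB4, A549 against H460 (edgeR adjusted p = 2.28e-04, 5.60e-04 and 0.00405). ITGB6, an epithelial chain, had 0 reads in H460 and 95 to 133 in the other 4 libraries, at least 30.4-fold higher in H1299 and 52.4-fold in A549. Its TPM in those 4 libraries was 0.355 to 0.811, so it was not expressed in any line by the threshold of 1.

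Of the laminin-binding alpha chains, ITGA3 had a TPM of 207 and 213 in H1299, 92.6 and 53.7 in A549, and 11.0 and 5.27 in H460. ITGA6 had 128 and 190 in H1299, 103 and 70.4 in H460, and 38.1 and 44.5 in A549. H460 thus had ITGA6 as its leading alpha chain and H1299 ITGA3, while A549 had ITGAV at 102 in the control and ITGA3 at 53.7 after si-MALAT1. ITGA3 was higher in H1299 than in H460 by 4.45 ± 0.64 and in A549 by 2.92 ± 0.09 (SD, n = 2, edgeR adjusted p = 1.05e-04 and 5.98e-04).

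Of the collagen-binding alpha chains, ITGA2 had a TPM of 4.86 and 4.55 in H460, 13.6 and 48.0 for H1299, and 11.2 and 18.7 for A549, and ITGA1 2.36 and 2.61, 2.62 and 4.13, and 2.43 and 4.59. ITGA1 shares 4.65% of its exon bases with PELO on the same strand, which had 1614 to 3327 reads. ITGA10 passed a TPM of 1 only in H1299, at 2.92 and 3.33, and ITGA11 did not exceed 0.124. The fibronectin receptor chain ITGA5 was at 23.9 and 24.7 in H460, 28.5 and 70.0 for H1299, and 18.5 and 22.6 for A549.

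ITGA4, a chain best known from leukocytes that binds VCAM-1 and fibronectin (chr2:181456892-181538940, plus strand), had 9751 and 11691 reads in H1299, 64 and 100 in A549, and 5 and 0 in H460. Its TPM in H1299 was 25.5 and 34.5. The difference of A549 from H1299 was -6.45 ± 0.07 (SD, n = 2, edgeR adjusted p = 7.37e-05), and that of H1299 from H460 was 10.42 and 13.31 in the control and si-MALAT1 libraries (adjusted p = 3.05e-05). ITGA4 shares 20.5% of its exon bases with CERKL on the other strand, which had 267 and 227 reads in H1299. Of the other leukocyte chains, ITGAL, ITGAX, ITGAD, ITGB2 and ITGB7 did not exceed a TPM of 0.503, ITGAM reached 1.38 in the A549 si-MALAT1 library, and ITGAE was at 2.64 to 6.02 in the 6 libraries. ITGAE shares 15.8% of its exon bases with NCBP3 on the same strand. ITGA8, an RGD-binding chain, had 163 and 126 reads in A549 and 0 in the other 4 libraries, at least 63.9-fold higher than in H460 and 73.2-fold than in H1299. Its TPM in A549 was 0.736 and 0.468, under the threshold of 1. The edgeR adjusted p was 0.00379 and 0.00256, and with DESeq2 the calls were lost at 0.0854 and 0.0656, the highest values over the alternatives.

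**Figure D4:**
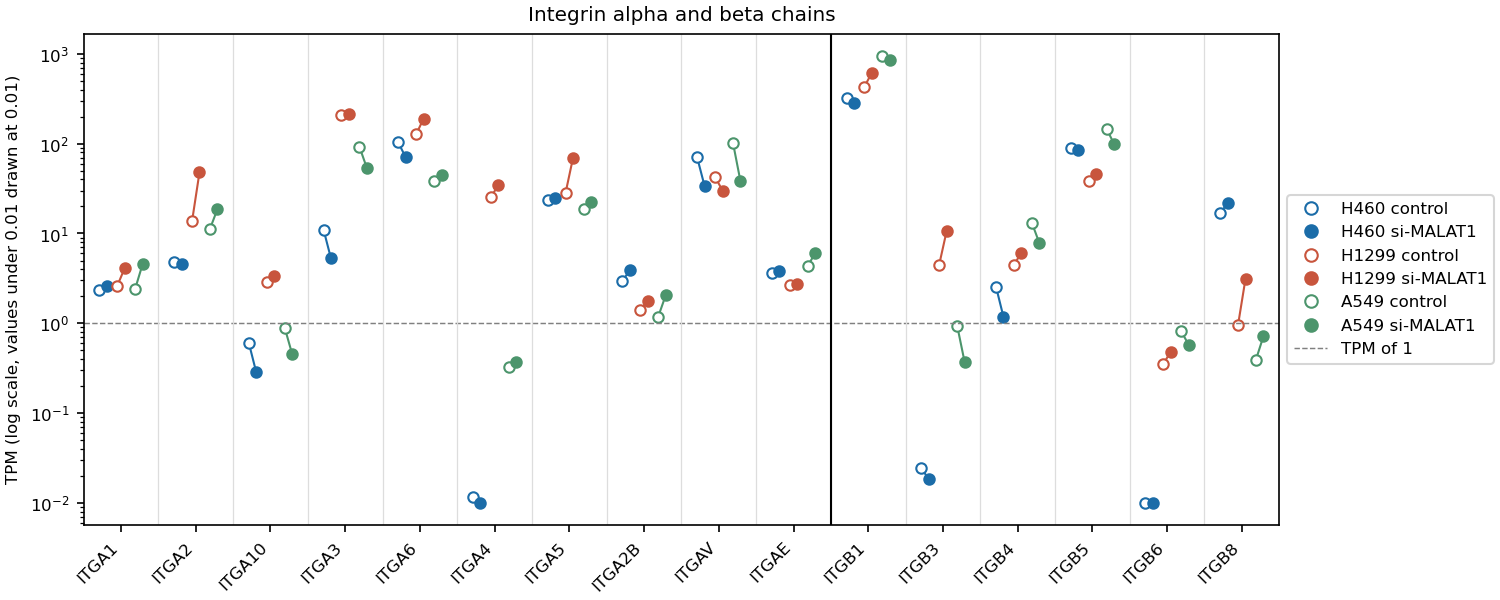
TPM (log axis, values under 0.01 drawn at 0.01) of 16 integrin chains in each line, with open circles for the control and filled circles for the si-MALAT1 library and a black line between alpha and beta chains. ITGB1 is the highest chain in all 6 libraries, ITGA4 lies above 1 in H1299 only, and ITGAV is lower after si-MALAT1 in the 3 lines.

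The chains were then matched against known complexes, taking a complex as encoded when every chain had a TPM of 1 in both libraries. This is a statement on RNA, and assembly was not measured. Among laminin trimers, laminin-511, laminin-521, laminin-311 and laminin-321 were encoded in all 3 lines. Laminin-111 and laminin-121 were added in H460 alone, and laminin-211, laminin-221, laminin-411 and laminin-421 in H1299 alone. No listed laminin trimer held LAMC3, which H460 and H1299 expressed, so trimers with that chain were not counted. Of 13 collagen trimers listed, H460 and A549 each encoded 6, which were types III, V and VII and the 3 type IV trimers. H1299 encoded 1 of those listed, type VII. The list left out the types of COL12A1, COL13A1, COL17A1, COL18A1 and COL27A1, which H1299 expressed, with COL18A1 at 35.3 and 30.9. The counts are thus not of all collagens a line encodes. Type VIII was listed as needing COL8A2 too, so COL8A1 in H460 did not count. In H1299 and H460 type VII was close to the threshold. Of 24 integrins, 8 were encoded in all 3 lines, comprising alpha1beta1, alpha2beta1, alpha3beta1, alpha5beta1, alpha6beta1, alphaVbeta1, alpha6beta4 and alphaVbeta5. AlphaVbeta8 was added in H460, and alpha4beta1, alpha10beta1, alphaVbeta3 and alpha2Bbeta3 in H1299. Also near the threshold were ITGA2B in H1299 (1.39 and 1.78), LAMA4 there (1.21 and 1.52) and ITGB8 in the H1299 control (0.963). Some complexes shared between lines rest on such values too. ITGB4 was at 1.18 in the H460 si-MALAT1 library, COL5A1 at 1.92 and 1.31 in H460, and LAMA3 at 1.93 and 1.95 in H1299. RNA for receptors of collagen and laminin was thus found in all 3 lines, and RNA for type IV collagen trimers in H460 and A549.

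The line contrasts were tested over all genes with edgeR, counting a gene as called at an adjusted p under 0.05. Of the 75 members tested, 50 were called between H1299 and H460, against 50.7% of all genes, with 19 higher and 31 lower in H1299. Between A549 and H460 it was 47, 22 of them higher in A549, against 35.3%. Between A549 and H1299 it was 49, 27 of them higher in A549, against 47.2%. The other 7 members had too few reads to enter the fit, and members at high level in a single line enter it through that line. In the same order of contrasts, 26, 26 and 25 of the 38 collagens tested were called, and 10, 7 and 10 of the 12 laminins. Of the integrins, 9 of 17 alpha chains (52.9%) and 5 of 8 beta chains were called in each contrast. The median absolute log2 fold change between H1299 and H460 was 4.10 for collagens, 2.72 for laminins, 0.964 for integrin alpha chains and 3.59 for integrin beta chains. In the same order it was 2.17, 1.24, 1.27 and 3.37 between A549 and H460, and 4.01, 1.77, 0.965 and 1.59 between A549 and H1299. These medians include members not expressed in any line, such as ITGB2, ITGB6 and ITGB7. Between H1299 and H460, ITGB1, ITGB4 and ITGB5 were at 0.428, 1.21 and -1.43. The 2 libraries of a line came from different treatments, and it is not stated that they were separate cultures of one condition, so these p-values measure only how far line differences varied between the control and si-MALAT1 libraries.

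The difference between the si-MALAT1 and control libraries was described within each line as the log2 ratio of scaled reads. It has a 95% interval for counting error only and no replicates. If the controls were not treated, as labelled, an effect of transfection cannot be told apart from one of MALAT1 loss. At a mean of 50 reads, 50 members could be compared in H460, of which 3 were at least 1.5-fold higher and 8 at least 1.5-fold lower after si-MALAT1, against 6.59% and 6.81% of all genes. In H1299 it was 13 higher and 1 lower of 48, against 10.5% and 8.53%. In A549 it was 12 higher and 6 lower of 51, against 8.26% and 8.27%. The median log2 fold change of the members was -0.07 in H460, 0.24 in H1299 and 0.04 in A549, while that of all genes was 0.01, 0.03 and 0.01. Laminins past 1.5-fold in H1299 included LAMA2 and LAMC1, both higher, and those in H460 were LAMA5 and LAMB3, both lower. LAMC1 was also past 1.5-fold in A549, and higher. Over the 3 lines, 14 collagens, 5 laminins and 12 integrin chains were past 1.5-fold in at least 1, which is 31 of the 65 members with a mean of 50 reads in a line, against 32.2% of all genes. Of the 6 epithelial markers, 1 was higher past 1.5-fold in H460 (EPCAM, 1.33) and 0 lower, for H1299 it was 0 and 0, and for A549 2 and 3. In A549 the keratins KRT7, KRT8 and KRT18 were at -1.04, -1.16 and -1.23 on the log2 scale and carried the summed TPM from 5509 to 2454, while EPCAM was at 1.16 and CDH1 at 0.51, and KRT19 went from a TPM of 0.888 to 2.23. The sums were 1246 and 896 in H460 and 481 and 459 in H1299. The part of these markers in the members' results was not tested.

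COL1A1 was the only member past 1.5-fold in the same direction in all 3 lines, against 0.801% of all genes that were higher in all 3 and 1.15% that were lower. Its reads numbered 175 in the control and 472 in the si-MALAT1 library of H460, 38 and 144 for H1299, and 267 and 469 for A549. This gave log2 fold changes of 1.51 (95% interval 1.26 to 1.77), 2.02 (1.53 to 2.61) and 0.67 (0.45 to 0.89), in that order. All 3 pairs were higher after si-MALAT1, with a mean of 1.40 ± 0.68 (SD, n = 3), and the level remained at or below a TPM of 2.03.

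ITGAV, the alpha chain of the vitronectin receptors and of the integrins that activate TGF-beta (chr2:186590056-186680902, plus strand), had a TPM of 70.6 and 33.8 (control and si-MALAT1) for H460, 42.8 and 30.1 for H1299, and 102 and 38.3 for A549. In reads this was 28939 and 14378, 17336 and 10631, and 25143 and 10472. The si-MALAT1 library was the lower in each pair, with log2 fold changes of -0.93 (-0.96 to -0.90) for H460, -0.57 (-0.61 to -0.54) for H1299, just short of 1.5-fold, and -1.41 (-1.44 to -1.38) for A549. The mean was -0.97 ± 0.42 (SD, n = 3). Its beta partners differed among themselves. ITGB5 had fold changes of -0.04, 0.24 and -0.50 in H460, H1299 and A549, and ITGB1 -0.06, 0.45 and -0.14. ITGB3, described next, and ITGB6 were lower in A549, at -1.33 and -0.50, and ITGB6 was at 0.38 in H1299. ITGB8 was higher in 3 of 3 pairs, with a mean of 1.01 ± 0.56 (SD, n = 3) and reads of 8348 and 11346 in H460, 496 and 1391 for H1299, and 127 and 259 for A549.

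ITGB3 was past 1.5-fold in opposite directions in 2 lines. The H1299 libraries held 1542 and 3198 ITGB3 reads, a change of 1.18 (1.10 to 1.27) on the log2 scale. The A549 libraries held 197 and 86, a change of -1.33 (-1.72 to -0.97). The difference between the lines was not tested, and ITGB3 had 9 and 7 reads in H460.

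In H1299 the collagen receptor chain ITGA2 went from 6170 to 18952 reads with the siRNA, 1.75 (1.71 to 1.79) on the log2 scale, against 0.74 for A549 and 0.04 for H460. The fibronectin receptor chain ITGA5 went from 6971 to 14960 reads in H1299, or 1.23 (1.19 to 1.27), against 0.19 for H460 and 0.30 for A549. LAMC1 was at 0.84 in H1299 and 0.61 in A549 and 0.08 in H460. ITGA3 was lower in H460 (-0.91) and A549 (-0.78) and level in H1299 (-0.01), and ITGB4 was likewise at -0.85, -0.73 and 0.40. COL4A1 and COL4A4 were past 1.5-fold in A549, at 0.76 and 0.70, whereas their head-to-head partners COL4A2 and COL4A3 were at 0.17 and 0.12 there. In H460 LAMA5 went from 38245 to 20876 reads, or -0.79 (-0.82 to -0.77).

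**Figure D5:**
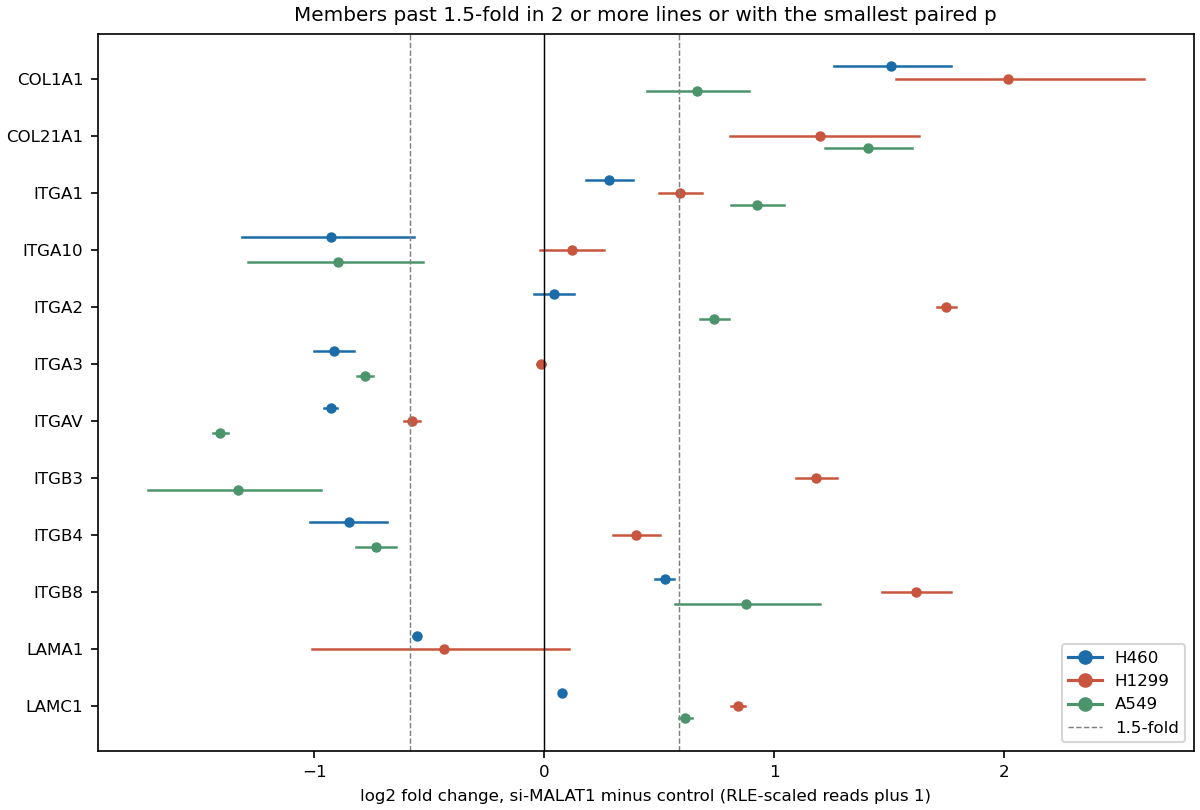
Log2 fold change of si-MALAT1 minus control (points) with 95% counting intervals (bars) in each line, for the 12 members past 1.5-fold in 2 or more lines or among the 5 with the smallest p in the paired test. Lines with a mean under 50 reads are not drawn, dashed lines mark 1.5-fold, and COL1A1 lies to the right of the dashed line and ITGAV to the left of zero in all 3 lines.

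Taking the 3 lines as pairs, edgeR called 0 of the 75 members tested and 0 of all 21771 genes (0.0%). At an unadjusted p under 0.05 there were 14 members, against 13.0% of all genes. The test has 2 residual degrees of freedom, and MALAT1 itself had an adjusted p of 0.0542 in it. LAMA1 had a mean of at least 50 reads in H460 and H1299 and 24 and 21 reads in A549. The 5 members with the smallest edgeR p were ITGAV, ITGB8, COL1A1, ITGA1 and LAMA1, with adjusted p of 0.130, 0.169, 0.169, 0.208 and 0.219. DESeq2 called 6 members, against 4.25% of all genes. COL1A1, ITGA1 and ITGB8 were higher, with DESeq2 adjusted p of 0.00813, 0.0240 and 0.00218, and ITGAV, LAMA1 and COL18A1 were lower, with 3.51e-05, 0.0268 and 0.0460. For each of these genes the adjusted p ranged from that DESeq2 value to 1.00 over the alternatives. Of the 34 members with a mean of 50 reads in each line, 9 were higher and 6 lower in all 3 pairs, or 26.5% and 17.6%, compared with 23.9% and 20.7% of all genes.

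Genes that make, surround or read the matrix were taken as fixed lists. Of 30 collagen biosynthesis genes, 24 were called between H1299 and H460, against 50.7% of all genes, 7 higher and 17 lower in H1299, and 22 to 26 were expressed in each line. By mean TPM over the 6 libraries the most abundant were PPIB, a prolyl isomerase, P4HB, a prolyl hydroxylase subunit, and FKBP10, a collagen chaperone. P4HB had a TPM of 408 and 315 in H460, 167 and 176 for H1299, and 276 and 274 for A549. H1299 thus expressed 26 of the 30 genes that process collagen while expressing 10 collagen genes. Past 1.5-fold with si-MALAT1, this list had 1 gene higher and 1 lower of 25 with a mean of 50 reads for H460, 7 and 0 of 28 for H1299, and 0 and 0 of 22 for A549. The shares over all genes, for this and the next lists, were 6.59% higher and 6.81% lower for H460, 10.5% and 8.53% for H1299, and 8.26% and 8.27% for A549.

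Of 18 other basement membrane and matrix genes, 16 were called between H1299 and H460 (50.7% of all genes), 7 higher and 9 lower. FN1, which encodes fibronectin, had a TPM of 1031 and 800 in H460, 17.3 and 48.7 for H1299, and 215 and 382 for A549. SPP1, which encodes the RGD ligand osteopontin, had 1028 and 826, 40.1 and 88.4, and 158 and 162, and TGFBI, a matrix protein induced by TGF-beta, had 946 and 538, 68.7 and 60.7, and 425 and 103. The order of the lines for FN1, SPP1 and TGFBI was that of the collagen sum, with H460 highest and H1299 lowest in the controls. These were the most abundant genes of the list, and 7 others were called higher in H1299 than in H460. Past 1.5-fold with si-MALAT1, this list had 0 genes higher and 5 lower of 16 for H460, 6 and 0 of 17 for H1299, and 4 and 3 of 17 for A549. FN1 is also one of the mesenchymal markers.

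Of 25 integrin adaptors, 24 were tested and 18 called between H1299 and H460 (50.7% of all genes), 12 higher and 6 lower in H1299. ACTN4, an actin cross-linker, had a TPM of 205 and 239 in H1299, 47.3 and 32.5 in H460, and 126 and 88.3 in A549. PTK2, the focal adhesion kinase, had 90.2 and 120, 25.1 and 23.9, and 52.9 and 62.1 in the same order of lines, and CD151, a laminin receptor partner, had 120 to 222 in the 6 libraries. VCL, which encodes the adhesion protein vinculin and was picked out after its values were seen, had a TPM of 45.7 and 19.0 in H460, 77.9 and 42.0 for H1299, and 42.6 and 16.7 for A549. Its log2 fold changes with si-MALAT1 were -1.05, -0.96 and -1.33 (edgeR adjusted p = 0.0948), and DESeq2 called it, with an adjusted p at or below 1e-12. For the adaptors, past 1.5-fold, 0 were higher and 2 lower of 21 for H460, 1 and 1 of 21 for H1299, and 0 and 1 of 22 for A549. Of 9 other matrix receptors, 7 were called between H1299 and H460 (50.7% of all genes), 4 higher and 3 lower, and CD44, the hyaluronan receptor, had 79.2 and 76.7 in H1299, 26.5 and 15.8 in H460, and 70.1 and 58.8 in A549. Past 1.5-fold, 0 of these receptors were higher and 2 lower of 8 for H460, 1 and 1 of 9 for H1299, and 1 and 0 of 8 for A549. The paired edgeR test called 0 genes of the 4 lists, and DESeq2 called 4 of the collagen biosynthesis, 3 of the matrix, 2 of the adaptor and 2 of the receptor genes.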

How the data were processed

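Total RNA of 6 libraries was sequenced after ribosomal RNA removal with a stranded kit. The authors used HISAT2 2.1.0 to align trimmed reads to hg38 (the submitters' notes list hg19 as well) and estimated abundance per gene with StringTie, for which the submitters' processing notes and the methods give different versions (1.3.4b in the notes). The authors deposited read counts, which StringTie derives from coverage and which are whole numbers and not normalized, and FPKM and TPM, which are scaled for length and depth. Whether counting used the strand is not given in the sources used here, so reads in exons shared with a gene on the other strand may be assigned to either. Exon bases were shared with another gene by 26 members, and 6 of these shared over 5%. Another 18 columns of per-sample values belong to other samples and were not used.

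Levels were compared between genes on the deposited TPM. FPKM was used only as an alternative threshold. Counts were tested with edgeR 4.0.16's quasi-likelihood test (R 4.3.3) with line and treatment as terms, TMM, filterByExpr and Benjamini-Hochberg adjustment over 21771 genes. The block pairs libraries of the same cell line, whose deviations from the treatment means correlated at 0.908 in H460, 0.923 in H1299 and 0.920 in A549 over 12733 genes. Line differences are log2 of RLE-scaled counts plus 1, given for the control and the si-MALAT1 libraries. Within lines the same scale was used with exact 95% Clopper-Pearson intervals, which cover counting error only. A group with 0 reads was given a floor of 3 reads per library. DESeq2 1.42.0, RLE scaling, no filter, no block, left-out libraries, other pseudocounts and thresholds were alternatives.

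The members and gene lists were chosen with earlier results of these data known. Named genes are the 3 most abundant per family and line, the 3 largest called differences in each direction per contrast, members past 1.5-fold in 3 lines or in opposite directions, the 5 smallest p in the paired test, chains of the complexes described, and up to 3 genes per list by TPM. Positions are from the deposited annotation and sequences from GRCh38. Other members are named where a count is small, after their values were seen. Values of 1 member, and of the complex that needs it, are not reported here.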

Additional observations from a re-analysis of the deposited data

Results flagged for a closer look

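ITGB3 stood out because its fold change after si-MALAT1 had opposite directions in 2 lines, with a log2 fold change of 1.18 in H1299 and -1.33 in A549. The difference between the lines was not tested, since each line had 1 library per condition. ITGB3 was at a TPM of 4.50 and 10.7 in H1299 and of 0.944 and 0.371 in A549.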

How the results depend on the processing

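For the paired comparison, DESeq2 called 6 members and edgeR called 0 with every other setting, which were no replicate block, RLE scaling, no filter on low counts, and leaving out H460, H1299 or A549 in turn (range 0 to 0). Without H460, edgeR called 163 of all genes, against 0. Members called between lines stayed within 1.5 times the reported counts under every alternative. When each library was left out in turn, they ranged from 48 to 51 between H1299 and H460, from 36 to 52 between A549 and H460, and from 38 to 54 between A549 and H1299. In such a fit the lone library of a line is assumed to vary like the others. Without the A549 si-MALAT1 library, COL14A1 was no longer called between A549 and H1299 (adjusted p = 0.0743). The count of members past 1.5-fold fell to 1 in H460, 3 in H1299 and 1 in A549 at an absolute log2 fold change of 1.5, and to 7 in H1299 and 9 in A549 on log2 of TPM plus 1, where low levels are damped. On that scale COL1A1 was at 0.63 in H460, 0.42 in H1299 and 0.41 in A549. Numbers of expressed members were 32 to 44 in H460, 29 to 39 in H1299 and 33 to 41 in A549 at a TPM of 2 and of 0.5. With 1 library per line and condition, fold changes within a line have no replicate check.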
